A study of Mus musculus with 16 samples.

Results

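Neat1 and Gm12966 are a nuclear long noncoding RNA and an annotated mouse pseudogene that were followed across neonatal brain of 4 genotypes. Their members are the spots whose symbol in the platform's probe annotation is Neat1 or Gm12966: 2 spots, 1 for each gene, of the 28704 spots on the array. Neat1 had a value on 14 of 16 arrays and Gm12966 on 15 of 16. The pair had been selected on measured values, the fall of both in Cx43 heterozygous against wild-type brain, so their levels and their differences from wild type are given as a description without a test.

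The study profiled brains of neonatal mice in 4 groups of 4 samples: wild-type mice (C57BL/6j on the labels of replicates 1 and 2, with no strain on those of replicates 3 and 4), and mice labelled C57BL that were Cx43 null, Cx43 heterozygous or Cx32 null. Gja1 encodes connexin 43, through which astrocytes couple to each other, and connexin 32 joins membranes of myelinating glia. A spotted cDNA array with 2 colours was used for each sample, with brain beside a common reference pooled from adult mouse tissues that themselves included brain. The labels state no sex, no exact age and no breeding scheme, and since they leave it unsaid whether samples are single animals or pools, intervals and p-values measure only the spread between these samples.

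Levels are given as log2 ratios, brain to reference, after the median of each array was set to 0, and differences are those between group means of such levels. The deposited log ratios were read as log2; the labels give neither the log base nor the numerator, and the likely direction is brain over reference because the median of 10 neuronal genes lay above that of 11 genes of the reference tissues on 16 of 16 arrays. Arrays held 21010 to 24819 spots with a value. Over all spots wild-type replicate 1 stood apart from its group. Cx43 null replicate 1 lay closer to wild type than the other arrays of its line did. Values without 1 of these 2 arrays are given for Neat1, Gm12966, Malat1 and counts of passing transcripts, but not beside every result. The tests ran over 14292 transcripts, and those with a limma p under 0.05 after Benjamini-Hochberg adjustment are called as having passed.

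Neat1 is transcribed in many cell types and stays in the nucleus. Its long form is the scaffold of paraspeckles, nuclear bodies that assemble as proteins such as SFPQ, NONO and PSPC1 bind the RNA, and that are known to hold back certain proteins and edited RNAs. Paraspeckles are known to become more abundant under stress, and Neat1 is a known target of p53 and of the hypoxia response. Gm12966 is a predicted gene model that the RefSeq table (assembly GRCm38.p6) classes as a pseudogene. A cDNA spot can also bind transcripts of related sequence, so the Gm12966 spot cannot separate the pseudogene from such relatives. A cDNA spot for Neat1 does not say which of its isoforms was bound. In whole brain, fewer cells that express a gene and less RNA per cell cannot be told apart.

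Neat1 was highest in wild type and lowest in Cx43 heterozygous and Cx32 null brain. Its wild-type levels were -1.43, 0.14 and -0.41 in replicates 1 to 3, and replicate 4 had no value. The 3 measured Cx43 heterozygous samples, replicates 1, 2 and 4, stood at -3.87, -3.49 and -3.42. The 4 Cx32 null samples stood at -3.65, -3.41, -3.03 and -3.66. Every measured sample of these 2 lines lay below every measured wild-type sample, and the values of the 2 lines ran through each other. The 4 Cx43 null samples were far apart, at -0.15, -1.64, -1.96 and -3.40: replicate 1 lay inside the wild-type range and replicate 4 inside the Cx32 null range. The group means were -0.57 ± 0.80 (SD, n = 3) in wild type, -1.79 ± 1.33 (SD, n = 4) in Cx43 null, -3.44 ± 0.29 (SD, n = 4) in Cx32 null and -3.59 ± 0.24 (SD, n = 3) in Cx43 heterozygous brain. All of these but 1 value lie below 0, so on 13 of the 14 arrays Neat1 stood below the median spot.

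Gm12966 was also highest in wild type, and its values in Cx43 null brain lay between wild type and the other 2 lines. Its wild-type levels were 3.57, 3.56, 3.14 and 2.87 in replicates 1 to 4. Cx43 null replicates 2 to 4 stood at 1.78, 1.39 and 1.46, and replicate 1 had no value. The Cx43 heterozygous samples stood at 0.67, 0.34, 0.05 and 0.27, and the Cx32 null samples at 0.76, 0.56, 0.61 and 0.70. Wild type, Cx43 null and the other 2 lines therefore formed 3 bands that did not overlap, while Cx43 heterozygous and Cx32 null values overlapped. Taken pair by pair, separations in these directions were found in 4.34% to 17.4% of all transcripts. How many transcripts form such bands was not counted. The Cx43 null band rests on 3 values, and wild type above Cx43 heterozygous brain was set by the choice of the gene. The group means were 3.29 ± 0.34 (SD, n = 4) in wild type, 1.54 ± 0.21 (SD, n = 3) in Cx43 null, 0.66 ± 0.09 (SD, n = 4) in Cx32 null and 0.33 ± 0.26 (SD, n = 4) in Cx43 heterozygous brain.

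**Figure D1:**
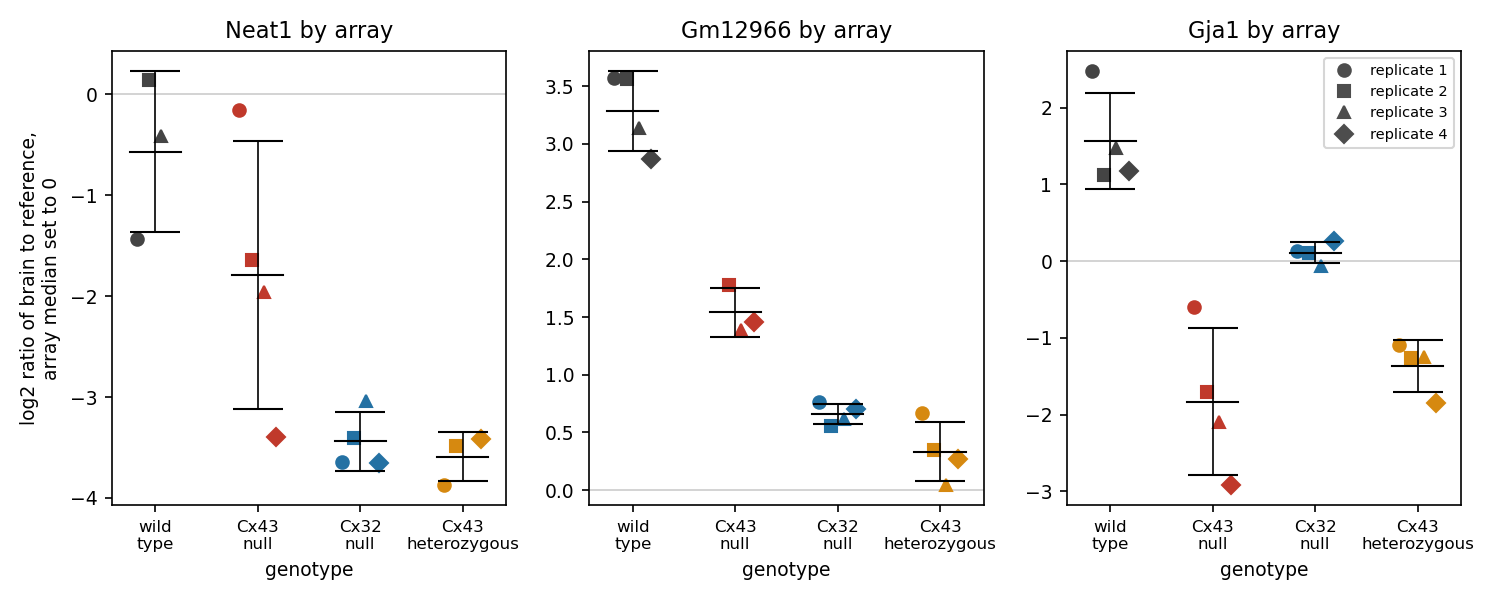
Level of Neat1, Gm12966 and Gja1 on each array (vertical axis, log2 ratio of brain to reference with the array median set to 0) by genotype; symbols give the replicate, long bars the group mean and short bars 1 SD above and below it. The 4 Cx43 null values of Neat1 run from -0.15 to -3.40, while the 3 measured Cx43 null values of Gm12966 lie between 1.39 and 1.78, apart from all other groups.

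The order of the group means was the same for both genes: wild type, Cx43 null, Cx32 null, Cx43 heterozygous. That wild type stood above Cx43 heterozygous brain was set by the choice of the genes. For Neat1 the neighbours wild type and Cx43 null overlapped, as did Cx43 null and Cx32 null, and Cx32 null and Cx43 heterozygous. For Gm12966 only the last 2 overlapped. Gja1, the gene that the Cx43 lines target, stood in another order. It was highest in wild type at 1.56 ± 0.63, followed by Cx32 null at 0.11 ± 0.14, Cx43 heterozygous at -1.37 ± 0.34 and Cx43 null brain at -1.83 ± 0.96 (SD, n = 4 each). Gja1 differed from wild type by -3.40 ± 0.37 (SE) in Cx43 null brain (limma, adjusted p = 0.00036), by -2.93 ± 0.37 in Cx43 heterozygous (adjusted p = 0.00012) and by -1.46 ± 0.37 in Cx32 null brain (adjusted p = 0.0099), so it was lower in both Cx43 lines and also in the line whose connexin 32 gene was targeted. With the 2 groups fitted alone, the Cx43 null call for Gja1 was lost (adjusted p = 0.076).

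The position of the genes among all spots of an array put these levels on a scale that does not need the log base. Neat1 stood at the 33.5th percentile of the spots on the wild-type arrays (mean, n = 3), with single arrays from 10.5 to 55.7. It stood at 0.96 in Cx43 heterozygous and 0.90 in Cx32 null brain, among the spots with the lowest ratios, and between 0.96 and 43.5 in Cx43 null brain. Gm12966 stood at the 99.4th percentile in wild type, with all 4 arrays between 99.2 and 99.8. It stood at 94.6 in Cx43 null, 77.2 in Cx32 null and 63.7 in Cx43 heterozygous brain. The spot for Gm12966 thus moved from near the top of the array towards its middle, and the spot for Neat1 from below the middle to the bottom.

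Against wild type, Neat1 was lower in Cx43 heterozygous brain (difference -3.02, 95% interval -4.21 to -1.83, 8.11-fold), in Cx32 null brain (difference -2.87, interval -3.98 to -1.75, 7.29-fold) and in Cx43 null brain (difference -1.22, interval -2.34 to -0.10). These intervals use 1 spread per gene shared by all 4 groups, although the spread of Neat1 differed between them. With the 2 groups fitted alone, the SE of its difference was 0.64 in Cx43 null, 0.38 in Cx43 heterozygous and 0.35 in Cx32 null brain. In the main fit the SE was 0.53, 0.56 and 0.53. Counted from the largest fall among the 14292 transcripts, Neat1 ranked 14 in the Cx43 heterozygous and 11 in the Cx32 null comparison. Its Cx43 null difference moved with single arrays, from -1.77 without Cx43 null replicate 1 to -0.68 without replicate 4. Gm12966 was lower in Cx43 heterozygous brain (difference -2.95, interval -3.36 to -2.55, 7.74-fold), in Cx32 null brain (difference -2.63, interval -3.03 to -2.22, 6.17-fold) and in Cx43 null brain (difference -1.75, interval -2.18 to -1.31, 3.35-fold). It ranked 15, 20 and 60 from the largest fall in these comparisons. In Cx43 heterozygous brain both genes thus stood within 2 ranks of each other, and Gja1 stood beside them at rank 16. High ranks of both genes there were favoured by their choice for that fall. The 3 comparisons share the wild-type arrays.

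Differences from wild type were common on these arrays. Over all transcripts, 31.0% passed in Cx43 heterozygous, 27.3% in Cx32 null and 10.8% in Cx43 null brain, and those that fell made up 17.5%, 14.3% and 6.43%. Values lay wholly below wild type for 17.4%, 14.6% and 6.26% of transcripts. Both genes were chosen for that fall, so nothing is read from their place in these shares.

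**Figure D2:**
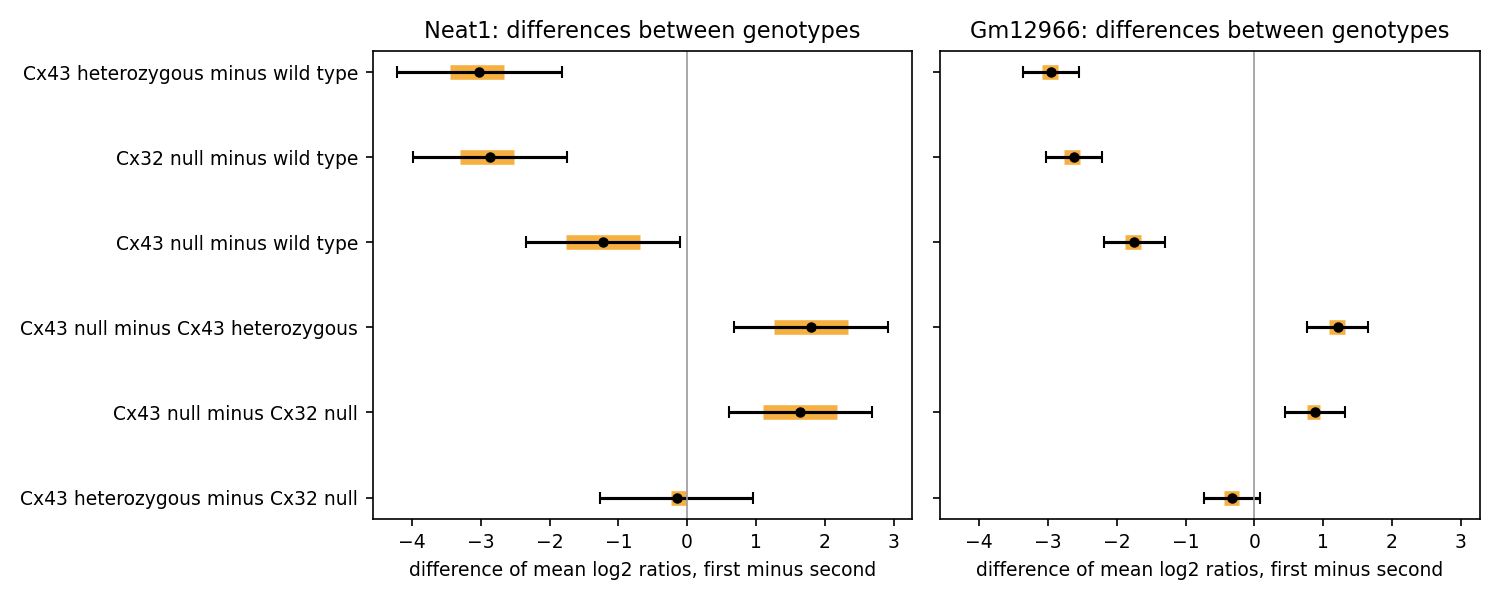
Differences between group means of Neat1 (left) and Gm12966 (right) on the log2 scale for the 6 pairs of genotypes, first minus second; points are the limma estimates, thin bars their 95% intervals, and thick bars the range of the estimate when each of the 16 arrays was left out in turn. For Neat1 the differences that involve Cx43 null run from -0.68 to -1.77 against wild type as arrays are left out, while the intervals of Gm12966 are narrower, such as 0.44 to 1.32 for Cx43 null against Cx32 null.

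The comparison of Cx43 null with Cx32 null brain shares no array with the comparison in which the genes were picked, and it is the one comparison tested here. Both genes were higher in Cx43 null brain, and neither passed. Neat1 was higher by 1.65 ± 0.49 (SE; 95% interval 0.61 to 2.68; limma, adjusted p = 0.24), with 3 of 4 Cx43 null samples above all 4 Cx32 null samples. Gm12966 was higher by 0.88 ± 0.21 (SE; 95% interval 0.44 to 1.32; adjusted p = 0.11), with 3 of 3 measured Cx43 null samples above all 4 Cx32 null samples, a separation found upwards in 4.34% of all transcripts. That share mixes transcripts with 3 and with 4 values in a group, and separation is easier to reach with 3. Only 12 transcripts, 0.0840%, passed in this comparison, and 1303 had an unadjusted p under 0.05. With the 2 groups fitted alone, limma gave an adjusted p of 0.26 for Neat1 and 0.098 for Gm12966. An exact permutation test, 2-sided, gave p = 0.057 for both genes; for the 3 against 4 samples of Gm12966 this is the smallest p that can be reached, and for the 4 against 4 of Neat1 the smallest is 0.029. With arrays weighted by their agreement both genes passed (adjusted p = 0.0048 for Neat1 and 0.00039 for Gm12966). Neat1 also passed without Cx43 null replicate 4 (difference 2.18, adjusted p = 0.042), and Gm12966 with quantile scaling (difference 1.03, adjusted p = 0.031).

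The remaining pairs are given as descriptions, because they include the Cx43 heterozygous arrays on which the genes were chosen. Cx43 null exceeded Cx43 heterozygous brain by 1.80 for Neat1 (95% interval 0.68 to 2.92) and by 1.21 for Gm12966 (interval 0.77 to 1.65). The values did not overlap for either gene, as for 7.11% of all transcripts in that direction, and 1.46% of transcripts passed. Each gene lacked a value in this pair, which makes a separation easier to reach. For Neat1 the lowest Cx43 null value was -3.399 and the highest Cx43 heterozygous value -3.415. Before array medians were set to 0 the Neat1 values overlapped, with Cx43 null replicate 4 at -3.308 and Cx43 heterozygous replicate 4 at -3.232. Cx43 heterozygous and Cx32 null brain differed by -0.15 for Neat1 (interval -1.27 to 0.96) and by -0.33 for Gm12966 (interval -0.73 to 0.08). The Neat1 interval holds the wider spread of the other groups: its SE was 0.53, and 0.19 with these 2 groups fitted alone. In that comparison 1.23% of transcripts passed.

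Neat1 was more widely spread than most transcripts, above all in Cx43 null brain. Its SD of 1.33 between the 4 Cx43 null arrays was larger than that of 99.8% of transcripts in the same group, whose median SD was 0.27. Neat1 was also widely spread in wild type, where its SD of 0.80 was larger than that of 90.3% of transcripts. In Cx43 heterozygous and Cx32 null brain its SD was larger than that of 62.3% and 69.3% of transcripts. The SD of Gm12966 was larger than that of 42.1% of transcripts in wild type, 33.2% in Cx43 null, 65.2% in Cx43 heterozygous and 8.54% in Cx32 null brain. Within Cx43 null brain Neat1 and Gja1 fell in the same array order: Gja1 stood at -0.60, -1.71, -2.10 and -2.92 in replicates 1 to 4, where Neat1 stood at -0.15, -1.64, -1.96 and -3.40. Only 4 arrays bear on this, so no correlation is given for them, and how many transcripts share this order was not counted. Over the 14 arrays with both values, Neat1 and Gja1 had r = 0.422. This ranked Gja1 2275 among the 8623 named genes compared, and r was 0.454 once the group means were removed. Gm12966 had no value on the array on which Neat1 was highest in that line.

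The Cx43 null arrays also differed in how closely they resembled wild type over all other spots. Cx43 null replicate 1, with the highest Neat1, had a mean Pearson r of 0.844 with the wild-type arrays, replicate 2 of 0.792, replicate 4 of 0.763 and replicate 3 of 0.657. The order in r is not that of Neat1, since replicate 4 had the lowest Neat1 of the line. The Cx43 heterozygous arrays had r of 0.673 to 0.705 and the Cx32 null arrays of 0.703 to 0.717. Wild-type replicate 1, which had the lowest Neat1 of its group, had an r of 0.712 with the other wild-type arrays, which stood at 0.802 to 0.852. The part of this likeness in the levels of the 2 genes was not tested; without Cx43 null replicate 1 Neat1 exceeded Cx32 null by 1.10 (adjusted p = 0.54). Without wild-type replicate 1, Neat1 differed from wild type by -3.45 in Cx43 heterozygous, -3.30 in Cx32 null and -1.65 in Cx43 null brain, and Gm12966 by -2.86, -2.53 and -1.65.

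**Figure D3:**
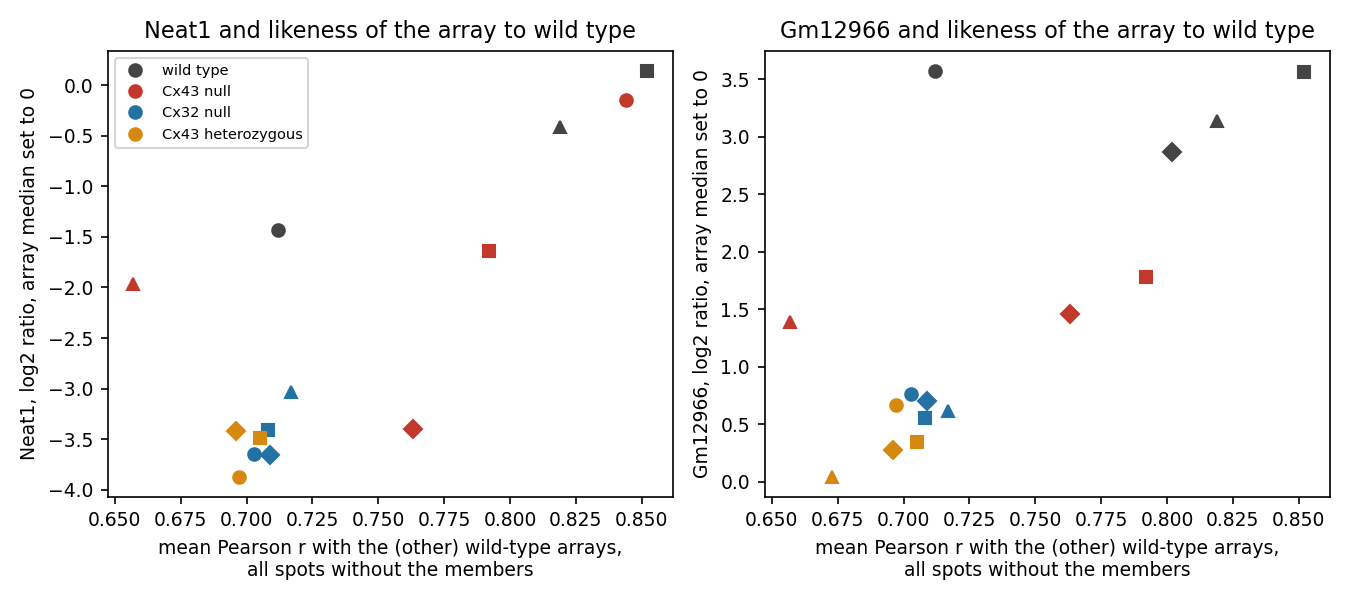
Level of Neat1 (left) and Gm12966 (right) on each array against the mean Pearson r of that array with the wild-type arrays, other than itself, over all spots except the 2 shown; colours give the genotype, and circles, squares, triangles and diamonds replicates 1 to 4. The Cx43 heterozygous and Cx32 null arrays sit together at r of 0.673 to 0.717, and the Cx43 null arrays spread from 0.657 to 0.844.

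Each gene rests on 1 spot, so the spots beside it in the deposited order were examined. The spot just before Gm12966 carries Rab7, a small GTPase of late endosomes, and followed it closely, with r = 0.95 over 15 arrays. That Rab7 spot stood at 2.66 ± 0.54 in wild type (SD, n = 4), 0.86 ± 0.35 in Cx43 null (n = 3), 0.38 ± 0.22 in Cx43 heterozygous and 0.76 ± 0.23 in Cx32 null brain. Of 17392 pairs of adjacent spots with at least 12 shared arrays, 121 (0.696%) had r over 0.9, and the median r was 0.13. The other Rab7 spots differed from each other: a further one stood at 1.97 ± 0.95 in wild type (n = 3) against 0.44 ± 0.49 in Cx43 null brain, and another at 0.64 ± 0.54 against 0.32 ± 0.27. The spot on the other side of Gm12966, Rrm2b, had r = 0.485 with it. Whether signal from the neighbouring spot contributed to the Gm12966 values was not tested.

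The spot just after Neat1, which the annotation gives to 9330166H04Rik and Slc12a2 together, had r = 0.734 with it. It stood at 1.17 ± 0.74 in wild type, 1.20 ± 0.11 in Cx43 null (n = 3), -0.01 ± 0.28 in Cx43 heterozygous and 0.14 ± 0.38 in Cx32 null brain, so Cx43 null lay level with wild type there, unlike for Neat1. The spot before Neat1 had r = 0.218. Over the 60 spots on each side of the genes, each array was correlated with the median of the other arrays. Around Neat1 r was 0.713 to 0.883 on the wild-type arrays and 0.917 to 0.965 on the others. Around Gm12966 it was 0.787 to 0.936 on the wild-type arrays and 0.858 to 0.968 on the others with a value. That median comes mostly from arrays that are not wild type. The missing value of Gm12966 on Cx43 null replicate 1 lies in a run of 105 consecutive spots without a value, while the 2 missing values of Neat1 stand alone.

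**Figure D4:**
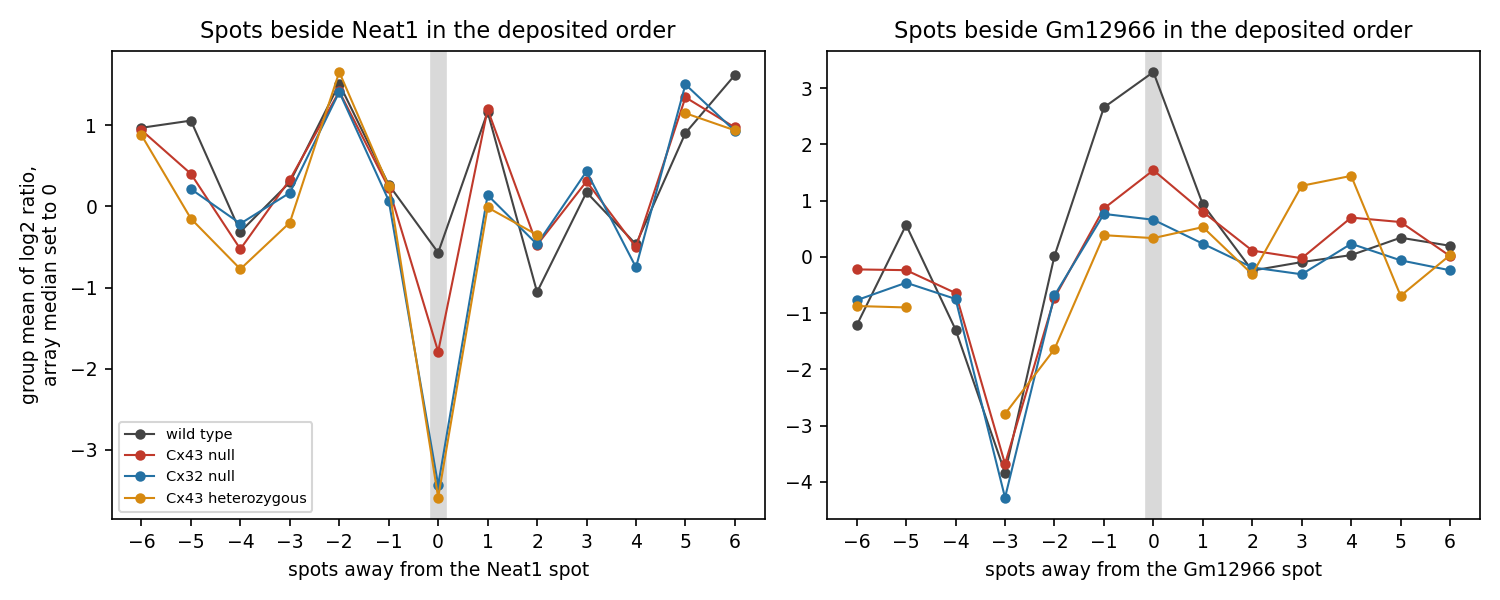
Group means (log2 ratio, array median set to 0) of the 6 spots before and the 6 after Neat1 (left) and Gm12966 (right) in the deposited order, with the gene itself at 0; gaps are groups without a value. Wild type stands at 2.66 on the Rab7 spot 1 place before Gm12966 and at 3.29 on Gm12966 itself, above the other 3 genotypes on both.

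Transcripts for the proteins that build or populate paraspeckles passed in both directions, at shares near or below those of all transcripts. Of 43 listed, 32 were measured, and 2 rose and 2 fell in Cx43 null, 3 rose and 4 fell in Cx43 heterozygous and 4 rose and 3 fell in Cx32 null brain, against 10.8%, 31.0% and 27.3% of all transcripts. The median difference of the list was -0.15, -0.13 and -0.05, beside 0.01, -0.02 and -0.03 over all transcripts. Of the genes for the core proteins that hold Neat1, Sfpq fell in Cx43 heterozygous brain (-0.49 ± 0.16, adjusted p = 0.025) and Nono in Cx32 null brain (-0.66 ± 0.18, adjusted p = 0.015). Their calls held in 17 and 22 of 25 alternatives. Pspc1 differed from wild type by 0.28, 0.03 and 0.17 in Cx43 null, Cx43 heterozygous and Cx32 null brain and passed in none.

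The paraspeckle-associated genes that rose were Adar, Srsf10, Smarca4 and Nudt21. Adar, which edits adenosine in double-stranded RNA, rose in all 3 lines, by 0.82 ± 0.22 in Cx43 null, 0.70 ± 0.22 in Cx43 heterozygous and 1.00 ± 0.22 in Cx32 null brain (adjusted p = 0.032, 0.024 and 0.0049). Srsf10, a splicing regulator, rose by 0.61, 0.59 and 0.60 (adjusted p = 0.033, 0.013 and 0.015). Smarca4, the ATPase of BAF chromatin remodelling complexes, rose by 0.80 in Cx43 heterozygous and 0.65 in Cx32 null brain (adjusted p = 0.0095 and 0.031). Nudt21, a subunit of the cleavage factor that helps choose poly(A) sites and so the Neat1 isoform, rose by 0.44 in Cx32 null brain (adjusted p = 0.047), a call that held in 9 of 25 alternatives. Adar kept its Cx32 null call in 25 of 25 alternatives, and its Cx43 null call in 19.

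Besides Sfpq and Nono, 6 genes of the list fell. In Cx43 null brain the cold-inducible Rbm3 fell by 1.10 ± 0.27 (adjusted p = 0.024) and Cirbp by 0.80 ± 0.24 (adjusted p = 0.043), the latter in only 7 of 25 alternatives. In Cx43 heterozygous brain Ewsr1 fell by 0.80 and Hnrnpk, which competes for the poly(A) factor on Neat1, by 0.78 (adjusted p = 0.037 and 0.031), in 15 and 17 of 25 alternatives. Hnrnpr fell by 0.50 in Cx43 heterozygous and by 0.68 in Cx32 null brain (adjusted p = 0.037 and 0.0100), in 14 and 25 of 25 alternatives. Rbm7 fell by 0.74 in Cx32 null brain (adjusted p = 0.044), in 9 of 25 alternatives.

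Most of the other long noncoding RNAs did not pass in any line. Of 61 listed, 21 were measured; 1 rose and none fell in Cx43 null (4.37% of all transcripts rose), 4 rose and 1 fell in Cx43 heterozygous (13.5% and 17.5%) and 2 rose and none fell in Cx32 null brain (13.1% and 14.3%; at an unadjusted p under 0.05 in limma, 5, 6 and 5 of the 21 differed in the 3 lines). Their median difference was 0.30, 0.22 and 0.10, beside 0.01, -0.02 and -0.03 over all transcripts. H19, the imprinted RNA next to Igf2, rose in all 3 lines, by 0.95 ± 0.23 in Cx43 null, 1.39 ± 0.23 in Cx43 heterozygous and 1.12 ± 0.23 in Cx32 null brain (adjusted p = 0.023, 0.00063 and 0.0035). Oip5os1 rose by 0.64 in Cx43 heterozygous and 0.71 in Cx32 null brain (adjusted p = 0.029 and 0.021). The small nucleolar RNA hosts Snhg17 and Zfas1 rose in Cx43 heterozygous brain, by 0.62 and 0.61 (adjusted p = 0.035 and 0.023), in 16 and 22 of 25 alternatives. Norad, which binds Pumilio proteins, was the one member that fell, by 1.32 ± 0.43 in Cx43 heterozygous brain (adjusted p = 0.027), and there its call held in 16 of 25 alternatives.

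**Figure D5:**
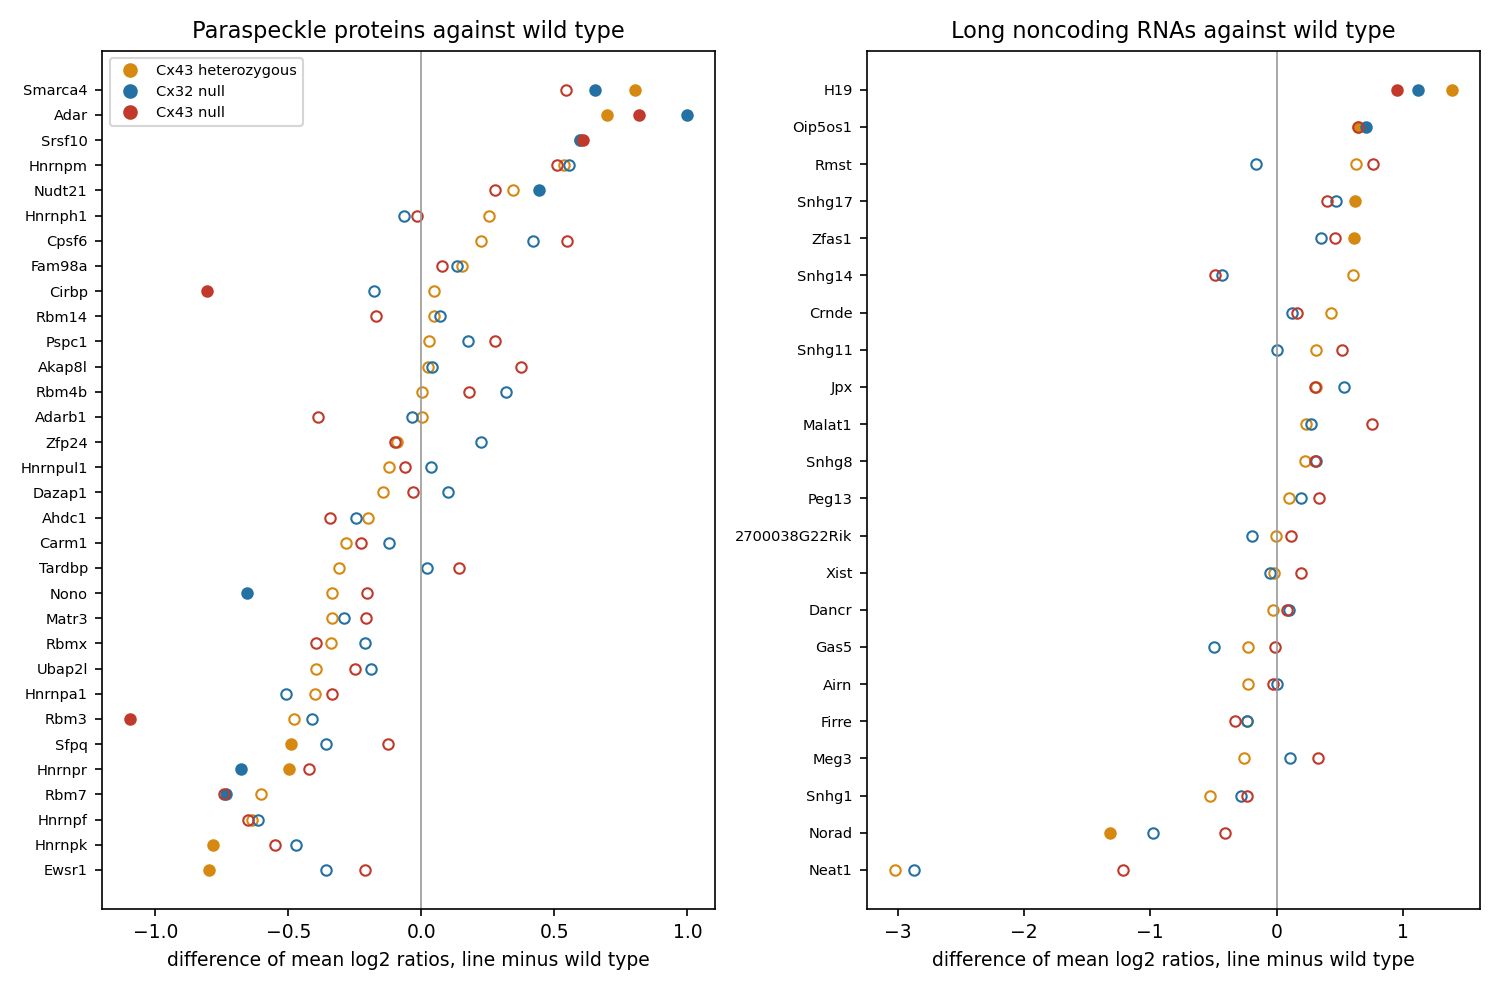
Difference from wild type (horizontal axis, log2 scale) of the 32 measured paraspeckle proteins (left) and of the 21 other long noncoding RNAs with Neat1 (right) in the 3 lines; filled points passed limma at an adjusted p under 0.05, open points did not, and Neat1, which was chosen for its fall, is drawn open and carries no test. Neat1 lies at -3.02 and -2.87 in Cx43 heterozygous and Cx32 null brain, below all 21 others, of which the lowest value is -1.32. The choice of Neat1 favoured this place.

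None of the measured genes around Neat1 in the genome passed in any line (limma), where 10.8%, 31.0% and 27.3% of all transcripts did. Of the 10 annotated genes on each side in the RefSeq table, 7 were measured; 2 in Cx43 null, 0 in Cx43 heterozygous and 2 in Cx32 null brain had an unadjusted limma p under 0.05, and their median differences were -0.14, -0.08 and -0.28. With array weights 3 of the 7 passed in Cx43 null and 1 in each of the other lines. Malat1, the nearest measured gene before it and itself an abundant nuclear RNA of speckles, differed from wild type by 0.75 ± 0.30 in Cx43 null (adjusted p = 0.10), 0.23 ± 0.30 in Cx43 heterozygous and 0.27 ± 0.30 in Cx32 null brain (adjusted p = 0.57 and 0.52). It passed in Cx43 null brain with array weights (difference 0.66, adjusted p = 0.013), without Cx43 null replicate 1 (0.99, adjusted p = 0.035) and when all 4 values were required in each group (0.91, adjusted p = 0.036), which left its differences at 0.69 in Cx43 heterozygous and 0.65 in Cx32 null brain (adjusted p = 0.053 and 0.070); without Cx43 null replicate 3 the Cx43 null difference was 0.34 (adjusted p = 0.33). Malat1 averages 3 spots, and its Cx43 null samples spread from -0.31 to 1.63. The mean of each spot was above wild type in Cx43 null brain, but in the other lines they differed in direction: one went from 0.14 in wild type to -0.54 in Cx43 heterozygous and -0.35 in Cx32 null brain, another from -1.10 to -0.42 and -0.47, and the last from -0.15 to 0.55 and 0.52. Frmd8, the nearest gene after Neat1, differed by 0.01, 0.00 and -0.16.

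Near Gm12966, 7 of the 20 listed genes were measured as well, of which 1 passed in Cx43 null, 3 in Cx43 heterozygous and 3 in Cx32 null brain, beside 10.8%, 31.0% and 27.3% of all transcripts. The nearest measured gene before it, the phosphatase gene Ptp4a2, fell in all 3 lines, by 0.79 in Cx43 null, 0.99 in Cx43 heterozygous and 0.82 in Cx32 null brain (SE 0.24; adjusted p = 0.043, 0.0055 and 0.018), and its Cx43 null call held in 12 of 25 alternatives. Tmem39b fell by 1.01 in Cx43 heterozygous and by 1.30 in Cx32 null brain (SE 0.30; adjusted p = 0.019 and 0.0065). The nearest measured gene after it, Adgrb2, which encodes an adhesion receptor of the brain, rose by 0.77 in Cx43 heterozygous and 0.56 in Cx32 null brain (SE 0.19; adjusted p = 0.0066 and 0.037). Khdrbs1, which lies between Ptp4a2 and Tmem39b, differed by 0.15, 0.24 and 0.28 and did not pass. Measured neighbours of Gm12966 thus moved in both directions. Gm12966 was chosen for its fall, so the size of that fall is not compared with theirs.

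Transcripts for nuclear speckle and nuclear matrix proteins fell more often than they rose. Of 18 measured, 5 fell in Cx43 null, 6 in Cx43 heterozygous and 7 in Cx32 null brain, and 2 rose, both in Cx32 null. Transcripts that fell made up 6.43%, 17.5% and 14.3% of all. The splicing factor genes Prpf8 and Sf3b1 led them: Prpf8 fell by 1.86, 1.80 and 1.62 in the 3 lines (adjusted p = 0.0089, 0.0013 and 0.0037), and Sf3b1 fell by 1.64 in Cx43 heterozygous and by 1.82 in Cx32 null brain (adjusted p = 5.5e-05 and 2.0e-05). Srrm1 fell by 1.26 in Cx43 null brain (adjusted p = 0.0074), but its difference was -0.23 (adjusted p = 0.62) when 2 values per group sufficed. Lmnb2, a nuclear lamin, rose by 0.61 and U2af2 by 0.44 in Cx32 null brain (adjusted p = 0.032 and 0.047), the latter in 8 of 24 alternatives.

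The p53 and hypoxia responses, both known to act on Neat1, were followed through lists of their genes. Of 11 measured p53 targets, 1 fell in Cx43 null and 3 in Cx43 heterozygous brain, and 2 fell and 3 rose in Cx32 null brain, where 10.8%, 31.0% and 27.3% of all transcripts passed in either direction. Mdm2, the p53 inhibitor and target, fell in all 3 lines, by 1.00, 0.98 and 1.05 (adjusted p = 0.013, 0.0028 and 0.0026). Sesn1 fell by 1.06 in Cx43 heterozygous and by 1.07 in Cx32 null brain (adjusted p = 0.013 and 0.015), while Perp and Phlda3 rose in Cx32 null brain, by 0.69 and 0.61 (adjusted p = 0.029 and 0.027). Of 15 measured hypoxia response genes, 1 rose in Cx43 null brain, and 2 rose and 4 fell in each of the other lines, against the same 10.8%, 31.0% and 27.3%. The glycolytic enzymes Aldoa and Pgk1 fell by 1.59 and 1.54 in Cx43 heterozygous and by 1.49 and 1.63 in Cx32 null brain (adjusted p = 0.0013, 0.0023, 0.0029 and 0.0024). Egln3, a prolyl hydroxylase that hypoxia induces, rose by 0.75 and 0.88, and Arnt by 0.52 and 0.63 (adjusted p = 0.016, 0.0088, 0.044 and 0.023). The Arnt call held in 11 of 25 alternatives in Cx43 heterozygous and in 21 of 25 in Cx32 null brain. The glucose transporter gene Slc2a1 rose in Cx43 null brain, by 0.73 ± 0.21 (adjusted p = 0.035).

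Named genes were ranked by how closely they followed each gene over the arrays. The 5 most like Neat1 were C77387 (r = 0.976 over 13 arrays), Ift122, Crip3, Pgap2 and C9orf72 (r = 0.973, 0.969, 0.962 and 0.954 over 14 arrays). Correlations of the deviations from the group means were 0.82 to 0.942. The genes were picked for a high r over these same arrays, which includes those deviations, so these values are no separate support. Of the 5 genes Crip3 had the widest range of group means, from 0.20 in wild type to -0.94 in Cx43 heterozygous brain. The 3 genes that ran most opposite were Dab1, Ankrd50 and Zbed3 (r = -0.936, -0.935 and -0.9). Dab1, an adaptor of reelin signalling in migrating neurons, went from 1.16 in wild type to 2.34 in Cx43 heterozygous and 2.42 in Cx32 null brain. Over all 8623 named genes compared, 62 (0.719%) had r over 0.9 with Neat1.

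The 5 genes most like Gm12966 were Ctsa, Slc38a3, Ufl1, Ube2s and Hspd1 (r = 0.983, 0.978, 0.976, 0.975 and 0.974 over 13 to 15 arrays). Slc38a3, a glutamine transporter, went from -0.23 in wild type to -1.02 in Cx43 null, -1.88 in Cx32 null and -2.02 in Cx43 heterozygous brain, and Hspd1, a mitochondrial chaperonin, from 1.24 to 0.66, 0.12 and -0.04. Within the genotypes these genes followed Gm12966 less, with r of 0.306 to 0.518. The most opposite were Zfp62, Mtss2 and Nexmif (r = -0.956, -0.952 and -0.95). Of 8652 named genes compared, 166 (1.92%) had r over 0.9. Neat1 and Gm12966 themselves had r = 0.907 over 13 arrays, but 0.0499 once the group means were removed, so what they share over the arrays is the order of the genotypes. Part of that order was set by the choice of both genes for their fall in Cx43 heterozygous against wild-type brain. The arrays of a genotype share it, so these values are descriptions. By Spearman's rho, none of the 5 genes listed for Neat1 and 2 of those for Gm12966 were still among the first 5.

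Single markers of cell types that whole brain can hold passed in both directions. The lists are short, so no count is read as a shift of a cell type. The counts stand beside 10.8% of all transcripts that passed in Cx43 null, 31.0% in Cx43 heterozygous and 27.3% in Cx32 null brain. Of 10 neuronal genes none passed in Cx43 null (limma; 2 at an unadjusted p under 0.05), 1 rose and 2 fell in Cx43 heterozygous and 3 fell in Cx32 null brain. Of 6 astrocyte and radial glia genes 1 fell in Cx43 null, 3 fell and 1 rose in Cx43 heterozygous and 2 fell in Cx32 null brain, led by Sparcl1 (-1.18, -1.68 and -1.19). Of 6 microglia and macrophage genes C1qa and C1qb fell in all 3 lines, while 3 rose in Cx43 heterozygous and 1 in Cx32 null brain. Of 7 meningeal genes Dcn and Ptgds fell in all 3 lines, and 1 rose in Cx43 heterozygous brain. Of 5 red blood cell genes none passed in Cx43 null (2 at an unadjusted p under 0.05), 3 fell in Cx43 heterozygous and 2 in Cx32 null brain, and the mean level of the list was -1.70 to -0.63 over the wild-type arrays, -2.48 to -1.24 for Cx43 null, -2.38 to -2.03 for Cx43 heterozygous and -2.03 to -1.58 for Cx32 null. Of 6 endothelial genes 1 rose in Cx43 null and 1 in Cx43 heterozygous brain, of 3 choroid plexus genes 1 fell in each line and 1 rose in Cx43 heterozygous brain, and Mbp fell in the last 2 lines among 2 oligodendrocyte genes. The Mbp call held in 22 of 25 alternatives in Cx43 heterozygous and in 10 of 25 in Cx32 null brain. Of 11 genes of the reference tissues none passed in Cx43 null (4 at an unadjusted p under 0.05), 4 fell and 1 rose in Cx43 heterozygous and 3 fell in Cx32 null brain. The part of these marker differences in the levels of Neat1 and Gm12966 was not tested.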

How the data were processed

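RNA of 16 neonatal mouse brain samples, 4 per genotype, was measured on 2-colour spotted arrays, with brain cDNA in Cy3 and a common reference in Cy5, per the labels, which for wild-type replicates 3 and 4 give the reference's dye alone. The authors deposited 1 log ratio per spot and array, read here as log2 values; how they corrected background and normalized within an array is not given in the sources used here. Title and channel name of wild-type replicate 3 disagree on its number, and the title was used.

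Symbols came from the platform annotation and, by gene identifier, from the RefSeq table: 18511 of 28704 spots had a single symbol, 937 several and 9256 none. Array medians of -0.13 to 0.28 were set to 0. Spots with at least 3 of 4 values in each group were kept, spots of a gene averaged, and 4 group means fitted to all arrays with limma 3.58.1 in R 4.3.3 (lmFit and eBayes, 2-sided, Benjamini-Hochberg over 14292 transcripts of a contrast). A missing value dropped its array from that transcript's fit. The fit was tested on simulated data. No 2 arrays were duplicates (highest r 0.935). Exact permutation tests used scipy 1.17.1.

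The members, the lists (paraspeckle proteins, long noncoding RNAs, nuclear speckle proteins, p53 targets, hypoxia response, cell types, reference tissues) and the tests were chosen with earlier results of these data known. Named are both members, Gja1, every paraspeckle and noncoding gene that passed, up to 2 passing members per direction of the other lists in each line, genome neighbours that passed or lay nearest, and the genes of highest and lowest r; Pspc1 and Khdrbs1 were added after their values were seen. Alternatives covered scaling, filtering, averaging of spots, array weights, the 2 groups alone, each array left out and replicate numbers as a block. Same-numbered samples of different groups did not deviate together (median r 0.0161 over 24 pairs, from -0.236 to 0.236), so numbers were not taken as pairs.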

Additional observations from a re-analysis of the deposited data

Results flagged for a closer look

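Between 2 of the lines, 6 genes named from the lists differed by limma's test of the difference itself. They were named because they passed against wild type in a line. These comparisons use arrays of that line again, which favours a difference, so the p-values are no separate support. Over all transcripts 1.46% passed between Cx43 null and Cx43 heterozygous brain, and 1.23% between Cx43 heterozygous and Cx32 null brain. Cx43 null exceeded Cx43 heterozygous brain by 1.67 for Syn1 (adjusted p = 0.0056), by 1.33 for Cnn1 (adjusted p = 0.039), by 0.94 for Slc2a1 (adjusted p = 0.031) and by 0.92 for Aqp1 (adjusted p = 0.037). Cx43 null lay below Cx43 heterozygous brain for Ctss (difference -1.94, adjusted p = 0.050) and Otx2 (difference -1.08, adjusted p = 0.024). Cx43 heterozygous exceeded Cx32 null brain by 2.82 for Ctss (adjusted p = 0.0090) and by 1.27 for Otx2 (adjusted p = 0.0081). None of these genes is a paraspeckle protein or a noncoding RNA.

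On the spot beside Neat1 that is given to 9330166H04Rik and Slc12a2, wild-type replicate 1 stood at 0.071, apart from the other wild-type arrays. On a Rab7 spot that does not adjoin Gm12966, Cx43 heterozygous replicate 4 stood at -0.14, apart from the other arrays of its group. These were 2 of 36 groups of 4 values examined, and chance alone sets an array apart in about 1 of 20 such groups.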

How the results depend on the processing

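Wild type stood above the 3 lines, and Cx43 null above the other 2, for both genes under every alternative that gave a value. Cx43 heterozygous stood below Cx32 null too, except for Neat1 with quantile scaling (difference 0.11) and by its rank on the array (0.06 percentile points). Requiring all 4 values in each group left no value for either gene. Cyclic loess scaling moved the differences from wild type to -0.75 (Neat1, Cx43 null), -2.34 (Neat1, Cx43 heterozygous), -2.24 (Neat1, Cx32 null) and -1.46 (Gm12966, Cx43 null), and quantile scaling those of Gm12966 to -1.27 (Cx43 null) and -2.31 (Cx32 null); array weights gave -1.74 for Neat1 in Cx43 null brain. Of the tested difference between Cx43 null and Cx32 null, array weights gave 1.67 for Neat1 (adjusted p = 0.0048) and 1.10 for Gm12966 (adjusted p = 0.00039), and quantile scaling 1.03 for Gm12966 (adjusted p = 0.031); over all alternatives adjusted p ran up to 0.54 for Neat1 and 0.33 for Gm12966. Leaving out 1 array gave 1.10 (without Cx43 null replicate 1) to 2.18 (without Cx43 null replicate 4) for Neat1.

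Counts of passing transcripts depended on single arrays. Against wild type, the 1543 of Cx43 null ran from 114 without Cx43 null replicate 3 to 2989 without wild-type replicate 4; it was 485 and 828 without wild-type replicates 2 and 1, 508, 584 and 2447 without Cx43 null replicates 2, 4 and 1, and 1008 without Cx43 heterozygous replicate 4. With array weights 5608, 6802 and 6339 passed in Cx43 null, Cx43 heterozygous and Cx32 null brain. With the 2 groups alone none passed in Cx43 null (limma; 3061 at an unadjusted p under 0.05) and 2256 in Cx32 null brain. Between Cx43 null and Cx43 heterozygous, single arrays gave 82 to 400, all 4 values 80 and array weights 2850. Between Cx43 null and Cx32 null, single arrays gave 3 to 64, quantile scaling 44, cyclic loess 22, all 4 values 5, at least 2 values 22, array weights 1167, the 2 groups alone 7 and the replicate block 6. Between Cx43 heterozygous and Cx32 null, single arrays gave 73 to 309, all 4 values 82, at least 2 values 268, array weights 1006 and the 2 groups alone 273. Against wild type the replicate block gave 1584, 4438 and 3874, and 4 of 16 samples correlated best with their own number; it changed no call of the 2 genes.

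Of the paraspeckle proteins, 0 to 6 passed in Cx43 null brain, 3 to 7 in Cx43 heterozygous and 4 to 8 in Cx32 null brain as single arrays were left out, with none in Cx43 null brain without wild-type replicate 2 or without Cx43 null replicates 2 or 3. The 2 groups alone gave 0, 2 and 3, array weights 13 in Cx43 null and 14 in Cx43 heterozygous brain, and in the latter the values as deposited 4, quantile scaling 3 and cyclic loess 3. Of 103 pairs of a named gene and a line, 42 passed in every alternative and 50 were lost with the 2 groups alone. Igf2 in Cx43 heterozygous brain turned to -0.32 when all 4 values were required (adjusted p = 0.34), and Sftpc in Cx32 null brain to 0.22 with cyclic loess scaling (adjusted p = 0.58); the cause was not tested. No intensities were used, so signal over background is unknown for both spots.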
